A study of Mus musculus with 11 samples.

Results

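Toll-like receptors and the proteins that work with them at the membrane were followed in gonadal white adipose tissue (WAT). They form a set of 10 genes chosen by name, with earlier results of these data known, among 12787 genes listed for this experiment. The set holds the receptor genes Tlr1, Tlr2, Tlr3, Tlr4, Tlr7, Tlr8 and Tlr13, the co-receptor genes Cd14 and Ly96, and Myd88, which encodes their shared adaptor. All 10 had values in every mouse. Tissue came from 11 male C57Bl6/J mice with no engineered allele named, all kept on a 60% high fat diet (HFD) for 20 weeks. The 5 HFD control mice received the diet alone (labelled Vehicle), and the 6 mice of the HFD + IMC group received it with 0.06% w/w iodomethylcholine (IMC), which blocks the gut bacterial enzyme that makes trimethylamine from choline. The age of the sequenced mice was not given, but feeding with the same diet, dose and duration began at 6 weeks of age in another experiment of the study. No source used here ties a mouse to a cage or batch, so the p-values measure the spread between these mice as sampled. The study housed mice in groups, with a few cages per condition and bedding mixed between cages beforehand. Mice that shared a cage may therefore not be independent. A further control animal had been dropped for quality before deposit, so the control group is the smaller one. Each mouse gave 1 directional mRNA library. Expression is given as log2 CPM, the log2 of a gene's reads relative to a library size that the authors scaled by its upper quartile. Reads recovered from these values numbered 22320022 to 23635249 on the listed genes in HFD control mice and 22619505 to 25155366 in the IMC group. Members had between 170 and 5650 reads in a mouse.

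Toll-like receptors detect conserved molecules of microbes. Tlr4 binds bacterial lipopolysaccharide together with the small secreted protein encoded by Ly96, and Cd14 hands the lipopolysaccharide over to that pair. Tlr2 senses bacterial lipopeptides, as a dimer with Tlr1 for the triacylated ones. Tlr3, Tlr7, Tlr8 and Tlr13 lie in endosomes, where Tlr3 senses double-stranded RNA, Tlr7 and Tlr8 single-stranded RNA and Tlr13 bacterial ribosomal RNA. All of these receptors except Tlr3 signal through Myd88, while Tlr3 uses the adaptor encoded by Ticam1, which Tlr4 also uses. In obese adipose tissue macrophages are a main source of these transcripts, although adipocytes and stromal cells express some of them as well.

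Of the 10 members, 9 were lower in the IMC group and 0 were higher at an adjusted p under 0.05 (limma, Benjamini-Hochberg adjustment over all listed genes). Over all 12787 genes, 21.0% were lower and 20% were higher by the same call. The set was chosen with earlier results known. Of the 3 listed receptors outside it, Tlr5, Tlr6 and Tlr9, 0 were lower, 1 was higher and 2 did not pass. The median log2 fold change of the members, IMC group minus HFD control, was -0.39, beside -0.03 for all listed genes. For 5 members, Cd14, Ly96, Tlr2, Tlr13 and Myd88, every mouse of the IMC group was below every HFD control mouse, a pattern that held for 10.5% of all genes. In whole tissue, fewer cells of a type and less RNA per cell cannot be told apart.

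**Figure D1:**
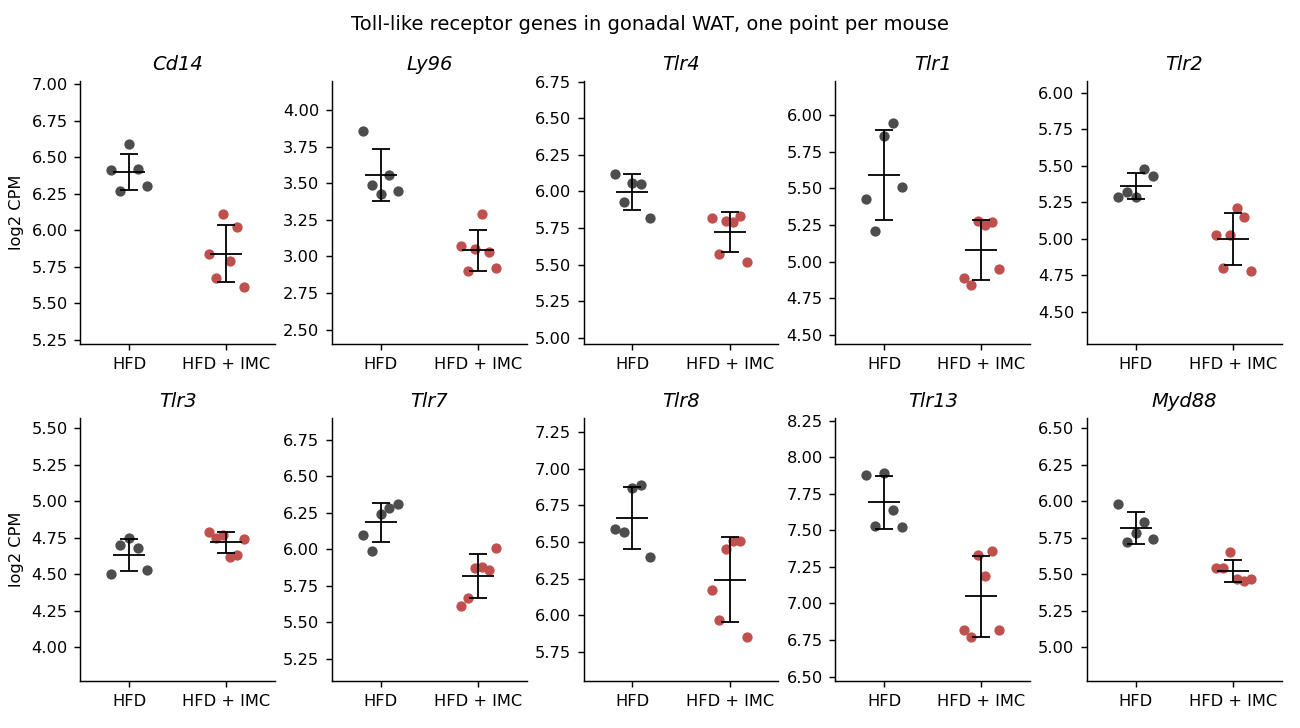
Log2 CPM of the 10 members (y axis) in HFD control mice (n = 5, grey) and mice on HFD + IMC (n = 6, red), with 1 point per mouse and bars for the mean and SD. Each panel spans the same width on the log2 scale, and the groups are apart for Cd14, Ly96, Tlr2, Tlr13 and Myd88 but overlap for Tlr3.

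Start regions of 4 members are shown: the member with the largest fall (Tlr13), Tlr1 and Tlr8, which also fell, and Tlr3, which did not pass. Tlr2 and Myd88 fell too and were searched, but their start regions are not printed. The printed members that fell are those that hold the motif marked below, and Tlr2, Myd88 and Tlr3 lack it. A link between the motif and the fall was not tested. Each sequence holds 250 bases before and 50 bases after the annotated start, read 5′ to 3′ on the strand of the gene. Starts are those of RefSeq on GRCm38.p6, whereas the gene positions given below are from GENCODE. Tlr1 had 2 start regions, and the one nearest its GENCODE start was used. The Tlr3 window lies wholly inside the GENCODE span of that gene. Capitals mark GAGGAA on either strand (TTCCTC where it lies on the other one), the core bound by PU.1, a transcription factor of macrophages and other myeloid cells.
Tlr13, chrX:106143025-106143324, plus strand: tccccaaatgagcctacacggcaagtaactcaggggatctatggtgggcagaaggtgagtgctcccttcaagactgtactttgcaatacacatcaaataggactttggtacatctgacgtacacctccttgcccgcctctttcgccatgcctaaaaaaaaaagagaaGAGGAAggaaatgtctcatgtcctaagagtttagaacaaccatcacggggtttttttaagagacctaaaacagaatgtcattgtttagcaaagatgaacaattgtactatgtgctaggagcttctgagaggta
Tlr1, chr5:64933509-64933808, minus strand: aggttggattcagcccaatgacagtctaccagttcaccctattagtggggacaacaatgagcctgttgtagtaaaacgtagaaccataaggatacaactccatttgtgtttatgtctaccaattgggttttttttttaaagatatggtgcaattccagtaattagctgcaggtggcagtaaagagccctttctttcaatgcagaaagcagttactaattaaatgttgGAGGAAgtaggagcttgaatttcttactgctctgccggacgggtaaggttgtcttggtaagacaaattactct
Tlr8, chrX:167264280-167264579, minus strand: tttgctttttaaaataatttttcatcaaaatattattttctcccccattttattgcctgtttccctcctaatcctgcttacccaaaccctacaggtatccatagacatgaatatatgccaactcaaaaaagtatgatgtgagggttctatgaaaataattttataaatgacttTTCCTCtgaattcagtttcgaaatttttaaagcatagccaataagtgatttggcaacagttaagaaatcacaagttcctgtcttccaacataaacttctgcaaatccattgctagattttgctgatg
Tlr3, chr8:45410331-45410630, minus strand: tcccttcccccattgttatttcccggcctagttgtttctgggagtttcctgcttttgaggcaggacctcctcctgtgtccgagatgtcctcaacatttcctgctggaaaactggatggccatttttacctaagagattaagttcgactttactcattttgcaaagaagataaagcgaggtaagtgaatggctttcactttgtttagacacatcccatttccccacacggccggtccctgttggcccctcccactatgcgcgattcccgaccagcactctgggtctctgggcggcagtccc

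The GAGGAA core began 83 bases before the start in Tlr13, 77 bases before it in Tlr8 and 23 bases before it in Tlr1. Among the 6 members whose start region was searched, Tlr1, Tlr2, Tlr3, Tlr8, Tlr13 and Myd88, 3 held it. Tlr2 and Myd88, which also fell, lacked it, as did Tlr3. Of 32851 start regions of the same length, 28.3% held it. A match to the NF-kB motif was present in Tlr2, as 4 matches of which 3 overlapped one another, and in Tlr3 at 1 position 211 bases before the start. That motif occurred in 4.51% of all start regions. A pattern of interferon response elements, GAAA and then, after 2 letters of any kind, GAAA again, was searched on both strands too. It was found 40 bases before the start of Myd88 and in 3.44% of all start regions. These letters describe the windows and are not evidence of binding.

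Cd14, Ly96 and Tlr4, the genes of lipopolysaccharide recognition, were each lower in the IMC group. Cd14 lies on chromosome 18 of GRCm38 from 36725067 to 36726798. HFD control mice 1 to 5 had 6.41, 6.27, 6.59, 6.42 and 6.30 log2 CPM of Cd14, and the IMC group ranged from 5.61 to 6.11 with a median of 5.81. The groups did not overlap. The log2 fold change was -0.56 (SE 0.09), a level of 67.9% of that in HFD control mice (limma, Benjamini-Hochberg adjusted p = 0.000437, the smallest of the 10 members).
Ly96, on chromosome 1 from 16688051 to 16709611, was the least abundant member before length is considered, with 170 to 323 reads per mouse. Its log2 CPM was 3.86, 3.49, 3.43, 3.56 and 3.45 in HFD control mice 1 to 5 and between 2.90 and 3.29 in the IMC group, with a median of 3.04. HFD control mouse 1 was the highest, and no mouse of the IMC group reached the lowest control. Ly96 fell by 0.51 on the log2 scale (SE 0.10; limma, Benjamini-Hochberg adjusted p = 0.00118).
Tlr4 itself, on chromosome 4 from 66827584 to 66930284, had the smallest fall of the 9 members that passed. Its log2 CPM was 6.12, 5.93, 6.06, 6.05 and 5.82 in HFD control mice and between 5.52 and 5.83 in the IMC group, with a median of 5.80. Only HFD control mouse 5 lay within the range of the IMC group, 5 of whose 6 mice were below all controls. The log2 fold change of Tlr4 was -0.27 (SE 0.07), or 82.8% of the control level (limma, Benjamini-Hochberg adjusted p = 0.0102).

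The log2 ratio of both partners to Tlr4 was compared within each mouse, since it does not depend on how libraries were scaled. Cd14 minus Tlr4 averaged 0.40 with an SD of 0.10 in the 5 HFD control mice, and 0.12 with an SD of 0.11 in the 6 mice of the IMC group. This difference of -0.28 passed the test (two-sided exact permutation test, p = 0.00649, adjusted over 4 pairs 0.0260). Ly96 minus Tlr4 was -2.44 ± 0.14 (SD, n = 5) and -2.68 ± 0.12 (SD, n = 6), a difference of -0.24 (two-sided exact permutation test, p = 0.0152, adjusted over 4 pairs 0.0303). Cd14 and Ly96 thus fell by more than Tlr4 in these tests. Neither call held in every repeat with 1 mouse fewer, where the exact test has fewer ways to divide the mice. Its smallest possible p is then larger, but this limit alone does not account for the lost calls. Other repeats of the same size still passed for Cd14 minus Tlr4, such as those without HFD control mouse 3 (adjusted exact p = 0.0286) or mouse 6 of the IMC group (adjusted exact p = 0.0317). Cd14 minus Tlr4 no longer passed without HFD control mouse 2 or 5 (adjusted exact p = 0.0571 each) or without mouse 1, 2 or 5 of the IMC group (adjusted exact p = 0.0635 each). Ly96 minus Tlr4 no longer passed without HFD control mouse 1, 2 or 5 (adjusted exact p = 0.0667 each) or without mouse 1, 2, 3 or 5 of the IMC group (adjusted exact p = 0.0635 each). In all 11 of these repeats both differences were negative.

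Tlr1 and Tlr2, the partners in lipopeptide recognition, were also lower. Tlr2, on chromosome 3 from 83836272 to 83841767, had 5.29, 5.32, 5.29, 5.48 and 5.43 log2 CPM in HFD control mice 1 to 5, the narrowest spread of the receptors in that group. In the IMC group it ranged from 4.78 to 5.21, with a median of 5.03 and without overlap. Its log2 fold change was -0.36 (SE 0.08; limma, Benjamini-Hochberg adjusted p = 0.00325).
Tlr1, on chromosome 5 from 64924679 to 64933563, had 5.43, 5.21, 5.86, 5.95 and 5.51 log2 CPM in HFD control mice and from 4.84 to 5.28 in the IMC group, with a median of 5.10. HFD control mouse 2 lay within the IMC range, and 3 of the 6 mice of the IMC group were below all controls. Tlr1 fell by 0.51 on the log2 scale (SE 0.13; limma, Benjamini-Hochberg adjusted p = 0.00823). Of all 50-base stretches in its longest transcript, 15.3% also occur in Tlr6, the neighbouring receptor gene. Reads that fit both genes equally could have been left out of the counts. Tlr1 minus Tlr2 averaged 0.23 (SD 0.28) in the 5 controls and 0.08 (SD 0.13) in the 6 mice of the IMC group, and a difference between the falls of these partners was not detected (two-sided exact permutation test, p = 0.273, adjusted over 4 pairs 0.364).

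Of the 4 endosomal receptors, Tlr7, Tlr8 and Tlr13 were lower and Tlr3 did not pass the test. Tlr7, Tlr8 and Tlr13 are the 3 members on chromosome X, Tlr7 from 167304929 to 167330558, Tlr8 from 167242696 to 167264329 and Tlr13 from 106143204 to 106160493. Tlr13, whose start region is printed above, had the largest fall of the 10 members and ranked 328 of 12787 genes from the most lowered one. HFD control mice 1 to 5 had 7.88, 7.53, 7.89, 7.64 and 7.52 log2 CPM of Tlr13. In the IMC group the lowest, median and highest values were 6.77, 7.0 and 7.36. The groups were apart, and mice 3, 4 and 5 of the IMC group, at 7.33, 7.19 and 7.36, were nearest to the controls. The log2 fold change was -0.64 (SE 0.12), or 64.0% of the control level (limma, Benjamini-Hochberg adjusted p = 0.00128).
Tlr7 had 6.10, 5.99, 6.24, 6.28 and 6.31 log2 CPM in HFD control mice and from 5.61 to 6.01 in the IMC group, with a median of 5.86. Mouse 6 of the IMC group, the highest of its group, was just above HFD control mouse 2, and the other 5 mice were below all controls. The log2 fold change of Tlr7 was -0.37 (SE 0.08; limma, Benjamini-Hochberg adjusted p = 0.00261).
Tlr8 had 6.59, 6.57, 6.87, 6.89 and 6.40 log2 CPM in HFD control mice and from 5.85 to 6.51 in the IMC group, with a median of 6.31. HFD control mouse 5 was below mice 3, 4 and 5 of the IMC group, so the groups overlapped more than for the other members that passed, apart from Tlr1. Its log2 fold change was -0.42 (SE 0.13; limma, Benjamini-Hochberg adjusted p = 0.0223). This call was lost without HFD control mouse 3 (limma, Benjamini-Hochberg adjusted p = 0.0610) and without HFD control mouse 4 (limma, Benjamini-Hochberg adjusted p = 0.0604), and the exact permutation test over all genes gave an adjusted p of 0.0752.
The log2 ratio of Tlr8 to Tlr7 averaged 0.48 (SD 0.22) in the 5 controls and 0.43 (SD 0.32) in the 6 mice of the IMC group, and no difference was detected (two-sided exact permutation test, p = 0.725, adjusted over 4 pairs 0.725).

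Tlr3, on chromosome 8 from 45395665 to 45411080, was the member with the smallest difference. HFD control mice 1 to 5 had 4.50, 4.70, 4.75, 4.68 and 4.53 log2 CPM, and the IMC group ranged from 4.62 to 4.79 with a median of 4.74. Most values of the IMC group lay within the control range, and 2 of its 6 mice were above all controls. The log2 fold change was 0.08 (SE 0.06; limma, Benjamini-Hochberg adjusted p = 0.313), with a 95% interval from -0.05 to 0.21. That interval lies wholly above those of the 9 members that passed, of which the highest bound was -0.11 for Tlr4. As a description, Tlr3 minus Tlr7 averaged -1.55 (SD 0.18) in the 5 controls and -1.10 (SD 0.19) in the 6 mice of the IMC group, a pair picked after the values were seen and therefore not tested. An antisense gene, Gm45542, shares 381 exon bases with Tlr3, and the strand setting of the counting was not given, so reads of both could have been counted together.

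Myd88, on chromosome 9 from 119335934 to 119341411, encodes the adaptor through which 6 receptors of the set, all but Tlr3, pass their signal. It had 5.98, 5.72, 5.78, 5.86 and 5.74 log2 CPM in HFD control mice and from 5.45 to 5.65 in the IMC group, with a median of 5.50. The ranges did not overlap, and the spread was narrow in both groups (SD 0.11, n = 5, and SD 0.08, n = 6). Its log2 fold change was -0.30 (SE 0.06), or 81.5% of the control level (limma, Benjamini-Hochberg adjusted p = 0.00130). The gene shares 290 exon bases with Acaa1a on the opposite strand, a peroxisomal thiolase gene whose log2 fold change was 0.08 (SE 0.07; limma, Benjamini-Hochberg adjusted p = 0.420).

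**Figure D2:**
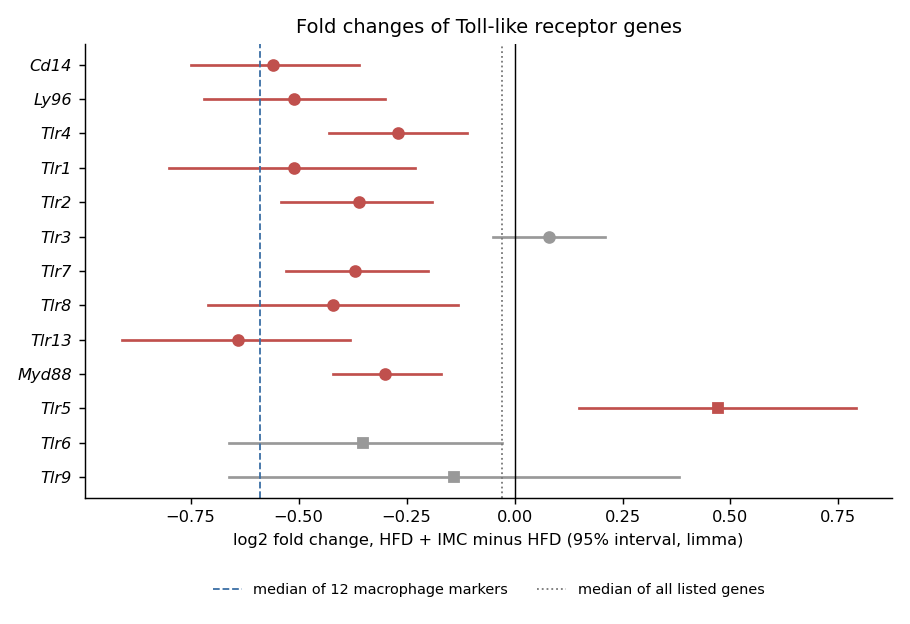
Log2 fold change, HFD + IMC minus HFD, with 95% limma intervals (x axis) for the 10 members (circles) and the other listed receptors Tlr5, Tlr6 and Tlr9 (squares). Genes at an adjusted p under 0.05 are red, the dashed line is the median of 12 macrophage markers (-0.59) and the dotted line that of all listed genes (-0.03). Tlr3 and Tlr5 lie to the right of the members that fell, as does the point of Tlr9 (-0.14), whose interval from -0.66 to 0.38 overlaps theirs.

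The remaining receptors of the family with values were Tlr5, Tlr6 and Tlr9. Tlr5, which senses bacterial flagellin, went the other way and was higher in the IMC group. It had 2.65, 3.36, 3.08, 2.97 and 2.98 log2 CPM in HFD control mice and from 3.10 to 3.84 in the IMC group, with 4 of 6 mice above all controls. Its log2 fold change was 0.47 (SE 0.15; limma, Benjamini-Hochberg adjusted p = 0.0214), on 139 to 328 reads per mouse. The call was lost without HFD control mouse 1, the lowest of the controls (log2 fold change 0.38; limma, Benjamini-Hochberg adjusted p = 0.0595), and by the exact permutation test over all genes the adjusted p was 0.0598. Tlr6, the partner of Tlr2 for diacylated lipopeptides, had a log2 fold change of -0.35 (SE 0.15), which did not pass (limma, Benjamini-Hochberg adjusted p = 0.0750) but did without mouse 4 of the IMC group (log2 fold change -0.44; limma, Benjamini-Hochberg adjusted p = 0.0166). Of its 50-base stretches, 12.6% occur in other genes, Tlr1 among them. Tlr9, the receptor for unmethylated CpG DNA, varied most between mice, from 2.61 to 4.13 log2 CPM in HFD control mice and from 2.72 to 3.66 in the IMC group. The difference of -0.14 (SE 0.24) was within that spread (limma, Benjamini-Hochberg adjusted p = 0.677) and was 0.05 without HFD control mouse 4. Tlr11 and Tlr12 were not analysed here.

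Levels of different genes were compared as CPM per kilobase of annotated exon. In HFD control mice Cd14 had 48.8 ± 4.37 (SD, n = 5) and Tlr13 48.4 ± 6.15 (SD, n = 5) CPM per kilobase, with overlapping ranges, and both were above the other 8 members in every control mouse. Tlr8 followed at 28.5 ± 4.14 (SD, n = 5), Myd88 at 21.9 ± 1.64 and Tlr7 at 17.9 ± 1.61. Tlr8 and Myd88 overlapped in range, whereas Myd88 and Tlr7 did not, and Tlr7 overlapped with Tlr1. Tlr1 at 14.7 ± 3.13, Tlr2 at 13.7 ± 0.838, Ly96 at 11.6 ± 1.53 and Tlr4 at 11.5 ± 0.946 CPM per kilobase formed a run in which neighbours overlapped. Tlr3 was lowest at 4.78 ± 0.358 and did not overlap with Tlr4.
In the IMC group Cd14 and Tlr13 were again first and second, at 33.3 ± 4.55 and 31.2 ± 5.93 CPM per kilobase (SD, n = 6), and Tlr3 was again last at 5.04 ± 0.255. Tlr1 and Tlr2 changed places, as did Ly96 and Tlr4. Against the length of the longest transcript, Ly96 was at 17.8 CPM per kilobase in HFD control mice, so the middle of the order depends on the gene model.

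**Figure D3:**
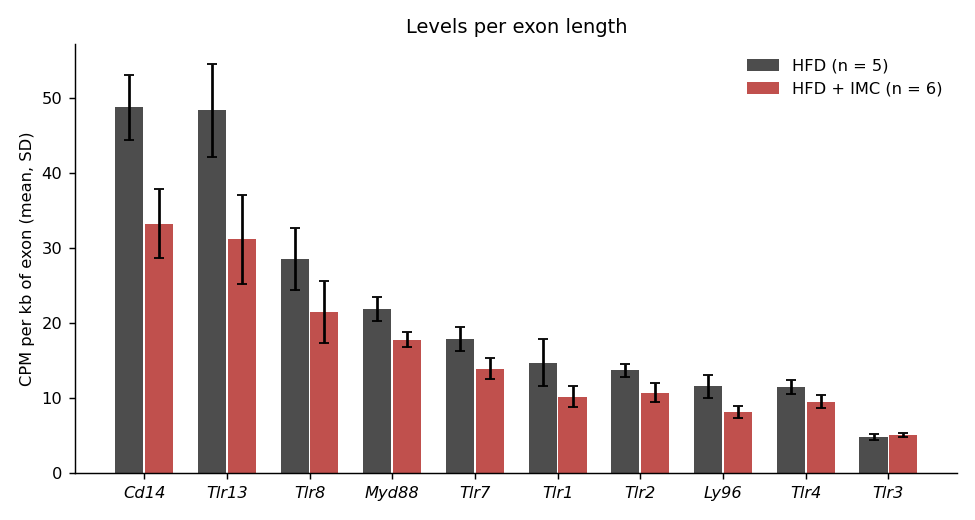
CPM per kilobase of exon (y axis, starting at 0) of the 10 members in HFD control mice (grey, n = 5) and mice on HFD + IMC (red, n = 6), as means with SD. Cd14 and Tlr13 are the highest in both groups and Tlr3 is the lowest.

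Variation among mice of the same group was described after subtracting the mean of each group from log2 CPM, over the 11 mice. Each correlation shares the libraries and their scaling, and none was tested. Of the 45 pairs of members, 35 had a Pearson r above 0, with a median of 0.37. The highest were Tlr13 with Cd14 at 0.84 and Tlr4 with Tlr8 at 0.81, and Tlr8 had a median r of 0.73 with the other members. Ly96 went with Tlr4 at 0.64. Tlr3 stood apart, with a median r of -0.08 and a lowest value of -0.60 with Ly96. Tlr7 and Myd88 were also loosely tied to the rest, with medians of 0.10 and 0.13.
Against the mean of 12 macrophage markers, the same measure was 0.93 for Tlr8, 0.87 for Tlr1, 0.86 for Cd14, 0.85 for Tlr13, 0.79 for Tlr4 and 0.75 for Tlr2. It was 0.39 for Ly96, 0.30 for Tlr7, 0.28 for Myd88 and -0.14 for Tlr3. Against the mean of 8 adipocyte markers it was -0.75 for Tlr13, -0.66 for Tlr4, -0.62 for Tlr8, -0.59 for Tlr1, -0.53 for Cd14, -0.52 for Ly96 and -0.48 for Myd88, and nearer to 0 for Tlr7 at -0.18, Tlr2 at -0.11 and Tlr3 at 0.17. For Ly96 and Myd88, and narrowly for Tlr3, the value was thus farther from 0 with the adipocyte markers than with the macrophage markers.

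**Figure D4:**
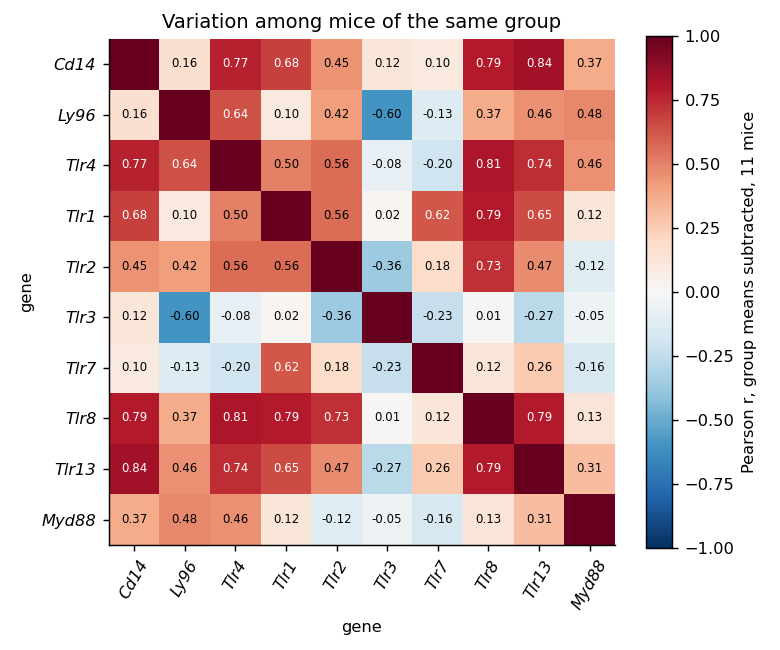
Pearson r between members over 11 mice after the group means were subtracted from log2 CPM (colour and number, from -1 to 1). Pairs among Cd14, Tlr4, Tlr1, Tlr8 and Tlr13 range from 0.50 (Tlr1 with Tlr4) to 0.84 (Tlr13 with Cd14), and Tlr2 with Tlr8 has 0.73. Tlr3 has the row of lowest values.

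For each member, the 3 listed genes with the highest r on these centred values were looked up. Tlr8 was closest to Axl at 0.985, Adgre1 at 0.985 and Cyfip1 at 0.978. Adgre1 encodes the F4/80 antigen of mouse macrophages and is itself one of the markers used here, and Axl encodes a receptor kinase for the uptake of dying cells. Cd14 was closest to Rgs18 at 0.984, Ptpra at 0.967 and Abcb4 at 0.965, and Tlr13 to S1pr2 at 0.981, Galc at 0.962 and Plk2 at 0.958. Tlr4 was closest to Arf6 at 0.979, Vwa5a at 0.967 and Elf4 at 0.959.
Tlr1 was closest to Dpp3 at 0.969, Slco2b1 at 0.954 and Sesn1 at 0.945, and Tlr2 to Ankle1 at 0.927, A630001G21Rik at 0.912 and C130050O18Rik at 0.898. For Tlr7 the first 3 were Coro2a at 0.931, Ehbp1l1 at 0.891 and Zfp444 at 0.888. Ly96 was closest to Serp1 at 0.950, Gng10 at 0.944 and Pla2g7 at 0.926, and Myd88 to Dbndd2 at 0.939, Lamtor4 at 0.907 and Sumf1 at 0.880. Tlr3 had the lowest first value of the members, 0.896 with Azgp1, followed by Nubpl and Rad51b at 0.853 each. No member was among the first 3 of another. With 11 mice and 12787 genes the first places are loosely fixed, and by Spearman rho 9 of these 30 genes were also among the first 3.

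Further genes of the pathway came from a list of 101 genes in 8 role groups, which includes the 3 other receptors above, and 89 of them had values. In the IMC group 39 were lower and 9 were higher at an adjusted p under 0.05 (limma), with a median log2 fold change of -0.21. The counts of each role group stand beside the 21.0% of all genes that were lower and the 20% that were higher. For the adaptors, the kinases and ubiquitin ligases and the inhibitors they lay near those shares and are no result about these groups.
Among 11 genes for accessory proteins and receptor trafficking, 7 were lower and 1 was higher. The log2 fold change was -0.88 (SE 0.09) for Ctsk, a cathepsin gene, and -0.56 (SE 0.09) for Ly86, which encodes the partner of the Toll-like protein Cd180. Lbp, which encodes the plasma protein that brings lipopolysaccharide to Cd14, was the gene that was higher. It rose by 0.88 on the log2 scale (SE 0.10; limma, Benjamini-Hochberg adjusted p = 6.07e-05), without overlap between the groups, while Cd14, Ly96 and Tlr4 fell. Of 4 other adaptors, 1 was lower and 0 were higher. It was Ticam1, the adaptor of Tlr3 and Tlr4, with a log2 fold change of -0.23 (SE 0.05), while Ticam2 at -0.24 (SE 0.14) and Pik3ap1 at -0.21 (SE 0.14) did not pass.
The 19 kinases and ubiquitin ligases were divided, with 6 lower and 5 higher. Lower were the ubiquitin ligase gene Peli1 at -0.46 (SE 0.07) and the kinase gene Btk at -0.50 (SE 0.10) on the log2 scale, whereas Tab3, which encodes a binding partner of the kinase TAK1, rose by 0.41 (SE 0.08). Of 11 transcription factor genes, 8 were lower and 0 were higher, among them Irf3 at -0.30 (SE 0.05), Jun at -0.40 (SE 0.07) and Irf5 at -0.43 (SE 0.08) on the log2 scale.
Inhibitors of the pathway, 13 in number, had 4 lower and 1 higher. Their log2 fold changes included -0.71 (SE 0.12) for Atf3, a transcriptional repressor, and -0.85 (SE 0.18) for Socs1, a suppressor of cytokine signalling, on 22 to 61 reads per mouse, and Tnip1, which encodes a partner of the ubiquitin-editing enzyme A20, rose by 0.24 (SE 0.06). Among 14 target genes, 6 were lower and 0 were higher. The adhesion molecule gene Icam1 had a log2 fold change of -0.51 (SE 0.06), the chemokine gene Ccl3 -1.02 (SE 0.14) and the co-stimulatory gene Cd80 -0.68 (SE 0.16). Innate sensors outside the family had 7 of 14 lower and 1 higher. The first by p were Casp1 at -0.53 (SE 0.07), Pycard, the inflammasome adaptor, at -0.65 (SE 0.08) and Tmem173, which encodes the DNA-sensing adaptor STING, at -0.49 (SE 0.07).

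**Figure D5:**
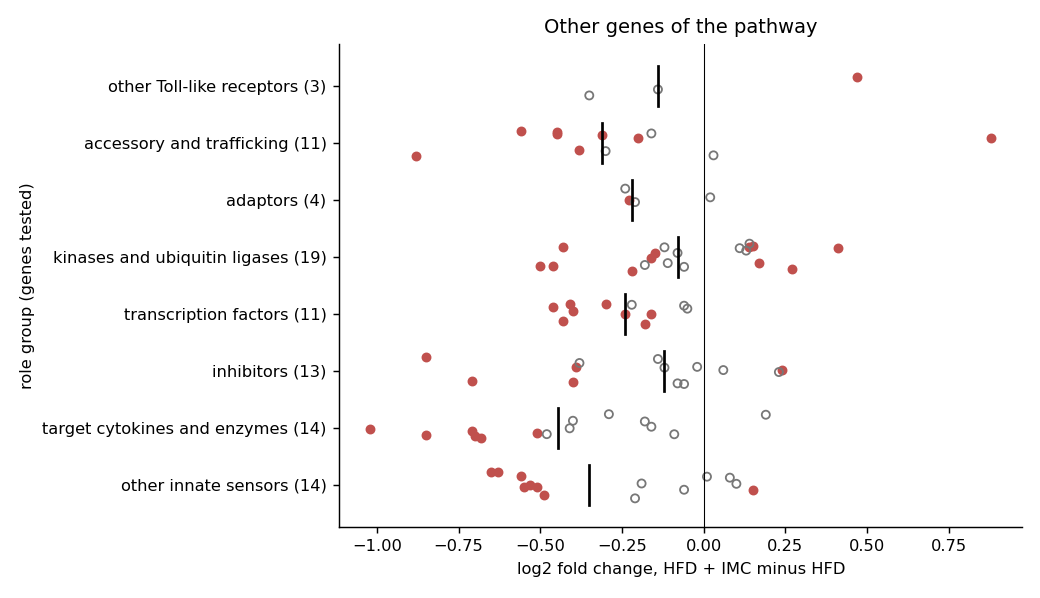
Log2 fold change, HFD + IMC minus HFD (x axis), of 89 other pathway genes in 8 role groups (y axis, number of genes tested in parentheses), with filled points for an adjusted p under 0.05, open points for the rest and a vertical bar for the median. Filled points lie on both sides of 0 for the kinases and ubiquitin ligases and to the left of 0 for the transcription factors and target genes.

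Markers of adipocytes and of macrophages differed between the groups in opposite directions. All counts of called markers stand beside the 21.0% of all genes that were lower and the 20% that were higher. All 8 adipocyte markers were higher in the IMC group, with a summed level of 9030 to 13000 CPM in HFD control mice and 18000 to 22200 CPM in the IMC group. Of 12 macrophage markers 9 were lower and 0 were higher, with a median log2 fold change of -0.59 and a range from -0.71 to 0.27. Their summed level was 9850 to 12400 CPM in HFD control mice and 5910 to 8630 CPM in the IMC group, without overlap. All 5 markers of lipid-associated macrophages were lower, with a median log2 fold change of -0.79, and their sum was 5020 to 7570 CPM against 2620 to 4250 CPM. The part of these cell markers in the falls of the members was not tested. Tlr13, at -0.64, was the one member with a larger fall than the median macrophage marker, and Tlr4 at -0.27 and Myd88 at -0.30 had the smallest falls of the 9 that passed.
Other marker lists were smaller in sum or moved less evenly. All 5 mast cell markers were lower (336 to 752 CPM in sum against 112 to 212). Their median log2 fold change was -1.34, a larger fall than that of either macrophage list. Of 5 dendritic cell markers 2 were lower and 1 was higher (21.6 to 30.1 CPM against 23.0 to 26.6), and 0 of 2 neutrophil markers passed (20.9 to 27.0 CPM against 23.9 to 29.7). The 1 T and NK cell marker with values did not pass (3.20 to 11.3 CPM against 2.02 to 6.95), 1 of 5 endothelial markers was higher (318 to 442 CPM against 386 to 528), and 3 of 5 progenitor and fibroblast markers were lower (3760 to 4490 CPM against 2820 to 3460). For mesothelium 1 of 3 markers was lower (152 to 209 CPM against 70.5 to 172), and both skeletal muscle markers with values were higher (12.2 to 17.4 CPM against 29.8 to 55.7). For the dendritic cell, neutrophil, T and NK cell, endothelial and mesothelial markers, the counts lay near the shares of all genes or rest on few genes. They are no result about these cells. Markers of B cells and epididymis were not analysed here.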

How the data were processed

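Before deposit, paired reads went through Trim Galore and FastQC, then STAR with the mm10 genome and UCSC gene models. The authors removed genes with few reads and used edgeR to scale library sizes by the upper quartile. The strand setting of the counting was not given in the sources used here. The authors deposited log2 CPM values for 12787 genes in 11 mice, 1 column per mouse, taken here by sample title, beside the results of their own comparison (fold change, mean level, test statistic, p-value and FDR), which were not used. The log2 CPM values were fitted with limma 3.58.1 in R 4.3.3 (lmFit, eBayes with trend, group as the only factor), with Benjamini-Hochberg adjustment over all 12787 genes, a threshold of 0.05 and no further filter. SE and 95% intervals are those of the fit. The fit was tested on simulated data.

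Whole reads were recovered from the equal steps of CPM within each mouse (100% of values within 0.1 of a whole read) and served for depth, levels per length and alternatives. Exact permutation tests used all 462 ways to divide the mice into 5 and 6, with a smallest p of 0.00216. Gene positions, exon lengths and shared 50-base stretches came from GENCODE M21 on GRCm38, the build of mm10, and start regions from RefSeq.

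The members and gene lists were chosen with earlier results of these data known. Named are all members, the other listed receptors, for each pathway group its 3 genes of smallest p and the 3 genes most like each member. Alternatives were other scalings, an added constant of 2 reads, a filter at a mean of 1 log2 CPM, limma voom, limma without trend or with a robust prior, the exact test and leaving out each mouse.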

Additional observations from a re-analysis of the deposited data

Results flagged for a closer look

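One value stood apart from the others of its group by Dixon's criterion, in 36 sets of values examined (the members, the other receptors, the 4 ratios and the read totals in each group), where chance marks about 1 set in 20. The log2 ratio of Tlr8 to Tlr7 was 0.09 in HFD control mouse 5, while the nearest other control mouse had 0.50, a gap of 0.752 of the whole range against a critical value of 0.71. This mouse had the lowest Tlr8 (6.40 log2 CPM) and the highest Tlr7 (6.31 log2 CPM) of the controls.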

How the results depend on the processing

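The count of members called was 8 or 9 under each of the 8 other settings and in all 11 fits that left out a mouse, the member lost being Tlr8, and the number of members without overlap was 5 to 7 with a mouse left out. Each member kept its direction throughout, and the largest shift of the median of all genes by a scaling was -0.032 on the log2 scale. Calls in the pathway list numbered 43 to 51 under the 7 other settings apart from the exact test, which was not run for the lists, and 40 to 48 with a mouse left out, against 48. Calls in the marker lists numbered 36 to 37 under those 7 settings and 36 to 40 with a mouse left out. With a mouse left out, the difference in Cd14 minus Tlr4 was -0.32 to -0.25, in Ly96 minus Tlr4 -0.29 to -0.20, in Tlr1 minus Tlr2 -0.23 to -0.07 and in Tlr8 minus Tlr7 -0.15 to 0.06, the last turning positive (0.06) without mouse 6 of the IMC group. By the length of the longest transcript 6 of 10 members kept their place in the order of levels, and by Spearman rho 9 of 30 most alike genes were shared. TMM scaling was planned and not run. No paired analysis was possible because the labels give no number shared between groups. Among the members and other receptors, Ly96, Tlr5, Tlr6 and Tlr9 rest on the fewest reads.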
